A study of Drosophila melanogaster with 2 samples.

Results

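The mitochondrial ribosomal protein genes of Drosophila melanogaster encode the proteins of the ribosome that works inside mitochondria. They were chosen by symbol, as every protein-coding gene named mRpL or mRpS followed by a digit, which gave 73 of 13945 protein-coding genes on the main chromosomes and arms. Of these, 47 encode proteins of the large subunit (mRpL) and 26 encode proteins of the small subunit (mRpS). They are spread over the genome, with 11 genes on X, 12 on 2L, 12 on 2R, 17 on 3L, 21 on 3R and 0 on 4. Binding of Doc2, a T-box transcription factor, was mapped by sequencing DNA that an anti-GFP antibody pulled down with chromatin (ChIP-seq). The chromatin came from whole embryos aged 0 to 18 h of a transgenic line that makes Doc2 fused to eGFP. There was 1 group with 2 biological replicates, and both carried the same fusion, so no condition is compared with another. The control library was not analysed here, and the labels do not say what drives the fusion gene.

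The mitochondrial ribosome translates the few proteins that mitochondrial DNA encodes, which are subunits of the respiratory chain and of the ATP synthase. Its RNAs are transcribed inside the organelle, but all of its proteins are encoded in the nucleus, made in the cytosol and imported. These genes are expressed in most tissues. Doc2 is best known for a different setting, the amnioserosa, the dorsal ectoderm and the heart of the embryo. A ChIP-seq peak is a stretch of DNA that is recovered more often than its surroundings, and its summit is the point of highest recovery. A peak near a gene does not show that the factor changes that gene's expression, and no expression was measured here.

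Most members had no peak near their start, and 4 of the 7 peaks that lay there were among the first 20 of the peak list. In the thresholded peak list of the whole series, 7 members had a peak summit within 500 bp of a transcription start site (TSS), which is 9.59% of the family. Among all protein-coding genes 700 of 13945 (5.02%) had one. The 7 were the large-subunit genes mRpL41, mRpL23, mRpL24 and mRpL20 and the small-subunit genes mRpS23, mRpS10 and mRpS2. Each of the 7 lies head to head with a neighbouring gene, and at all but mRpL23 the summit lay between the facing starts. When each peak was given only to the gene with the nearest TSS, 2 members kept a promoter peak (2.74%; all protein-coding genes 488, 3.50%), mRpL41 and mRpL23. With no limit on distance that rule gave 3 members (4.11%), against 968 genes in all (6.94%), and the added gene was mRpS5, whose peak lay 28773 bp upstream. The list is cut at an irreproducible discovery rate (IDR) of 0.01, a measure of how poorly a peak's rank repeats between the peak sets compared. At an IDR of 0.05 the rule gave 6 members (8.22%), against 2154 genes (15.4%). The peaks themselves chose these genes, so the counts are a description with no test, and the direction of the gap from the background turned on how shared promoters were counted.

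The DNA under 5 of the 7 promoter peaks is shown because these stretches hold the shared promoters that the counts turn on, together with the strongest member peak within 500 bp of a TSS that missed the threshold (mRpL37). Each stretch is the plus strand of dm6, 5′ to 3′, read from the RefSeq sequence of that assembly, up to 100 bases to each side of the summit and ending where a gene begins. The stretch for mRpS2 runs into the start of its neighbour to keep a motif whole. Capitals mark ACAGTG or TTAAAA on either strand (CACTGT and TTTTAA are the same motifs read on the other strand). The stretches lie at chr2L:13835365-13835563 for mRpS23, chr3R:15229435-15229635 for mRpS10, chr2L:4945396-4945578 for mRpL24, chr3L:13018019-13018219 for mRpL20, chr2L:4850490-4850643 for mRpS2 and chr3R:10784093-10784283 for mRpL37.
mRpS23: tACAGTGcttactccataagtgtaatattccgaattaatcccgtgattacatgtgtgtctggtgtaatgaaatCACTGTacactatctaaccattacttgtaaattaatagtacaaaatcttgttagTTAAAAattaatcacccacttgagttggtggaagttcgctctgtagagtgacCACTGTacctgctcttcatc
mRpS10: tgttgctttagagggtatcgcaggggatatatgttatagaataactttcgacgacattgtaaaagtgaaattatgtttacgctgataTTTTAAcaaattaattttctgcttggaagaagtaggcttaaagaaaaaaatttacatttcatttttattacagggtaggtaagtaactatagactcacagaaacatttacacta
mRpL24: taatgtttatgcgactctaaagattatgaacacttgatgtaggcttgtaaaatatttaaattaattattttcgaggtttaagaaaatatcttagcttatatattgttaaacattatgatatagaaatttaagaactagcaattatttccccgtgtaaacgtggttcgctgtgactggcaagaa
mRpL20: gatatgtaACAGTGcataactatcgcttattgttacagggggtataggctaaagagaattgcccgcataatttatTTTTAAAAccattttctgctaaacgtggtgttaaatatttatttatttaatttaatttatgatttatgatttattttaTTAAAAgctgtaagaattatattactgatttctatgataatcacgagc
mRpS2: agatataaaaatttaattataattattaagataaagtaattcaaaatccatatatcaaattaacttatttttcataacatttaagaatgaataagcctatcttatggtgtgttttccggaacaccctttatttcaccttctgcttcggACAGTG
mRpL37: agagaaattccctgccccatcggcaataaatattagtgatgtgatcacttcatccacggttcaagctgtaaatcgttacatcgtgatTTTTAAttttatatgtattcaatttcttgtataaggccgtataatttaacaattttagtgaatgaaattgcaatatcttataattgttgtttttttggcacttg

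Among the large-subunit genes, mRpL41 had the strongest peak. Its protein belongs to the part of the large subunit that has no bacterial counterpart. The gene (FBgn0034001; 2R, 15217024 to 15217617, minus strand) had a peak at 15217614 to 15217880 with a signal of 815, rank 4 of the 1140 series peaks on these chromosomes. Signal is the value that the authors' peak caller gave a peak; the labels and file notes do not state its scale, so it is compared only within a list. In the replicates' own lists the peak had a signal of 438 (rank 5) in replicate 1 and 380.3 (rank 4) in replicate 2. It stood near the top of each list. The summit lay in intergenic DNA, 119 bp upstream of the mRpL41 TSS and 643 bp from the TSS of CG8079, the facing gene, which starts 762 bp away from mRpL41.

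The second large-subunit peak lay at mRpL23, whose bacterial relative sits at the exit of the ribosome's protein tunnel. The gene (FBgn0035335; 3L, 2372844 to 2373704, minus strand) has 3 annotated TSSs, and the peak at 2373485 to 2373730 covered them. Its signal was 539 in the series list (rank 20), 281 in replicate 1 (rank 25) and 251 in replicate 2 (rank 16). The summit lay in the 5′ UTR of mRpL23, 59 bp downstream of the closest TSS, 85 bp downstream of another and 118 bp upstream of the last. The facing gene CG9004 starts 24 bp from mRpL23, and the summit was 109 bp from its TSS. With sonicated fragments of 200 to 800 bp, per the labels, signal at starts this close cannot be told apart by gene.

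The strongest small-subunit peaks stood at mRpS23 and mRpS10. mRpS23, a small-subunit protein with no bacterial counterpart (FBgn0260407; 2L, 13834250 to 13835072, minus strand), had a peak at 13835350 to 13835589 with a signal of 659 (rank 9). Its signal was 369 in replicate 1 (rank 9) and 302 in replicate 2 (rank 9), so its rank was the same in all 3 lists. The summit was 393 bp upstream of the mRpS23 TSS but 99 bp from that of CenG1A, a gene of the centaurin family of Arf GTPase-activating proteins, which starts 492 bp from mRpS23.

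mRpS10, related to a bacterial protein of the small subunit (FBgn0038307; 3R, 15229665 to 15230516, plus strand), had a peak at 15229416 to 15229651. The signal was 582 in the series list (rank 15), 318 in replicate 1 (rank 16) and 267 in replicate 2 (rank 14). The summit lay almost midway in the 257 bp between mRpS10 and the arginine methyltransferase gene Art3, 130 bp from a TSS of mRpS10 and 127 bp from that of Art3. A difference of 3 bp thus gave this peak to Art3 under the nearest-TSS rule. In the own list of replicate 1 the summit was nearest to mRpS10, at 126 bp, which made 3 members with a nearest promoter peak there in place of 2.

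The other 3 promoter peaks were weaker. At mRpL24, whose bacterial relative also lies at the tunnel exit (FBgn0031651; 2L, 4944256 to 4945361, minus strand), the peak at 4945321 to 4945670 had a signal of 188 (rank 195), with 103 in replicate 1 (rank 229) and 91.8 in replicate 2 (rank 159). Its summit was 135 bp upstream of mRpL24 and 83 bp from betaggt-I, a subunit gene of a geranylgeranyl transferase. At mRpL20, whose bacterial relative acts in the assembly of the large subunit (FBgn0036335; 3L, 13017149 to 13017867, minus strand), the peak at 13017944 to 13018293 had a signal of 159.8 (rank 267), with 85.8 in replicate 1 (rank 326) and 83.8 in replicate 2 (rank 194). Its summit was 252 bp upstream of mRpL20 and 147 bp from Icmt, which encodes a methyltransferase of prenylated proteins. At mRpS2 (FBgn0031639; 2L, 4849439 to 4850419, minus strand), related to a bacterial protein of the small subunit, the peak at 4850415 to 4850764 had a signal of 148 (rank 315) and 112 in replicate 1 (rank 191). It was missing from the thresholded list of replicate 2, where the overlapping peak of the full ranked list had a signal of 41.2. Its summit was 171 bp upstream of mRpS2 and 51 bp from Mon1, a gene of vesicle traffic. All 3 intervals were 350 bases wide with the summit at the middle, and 1017 of the 1140 series peaks had that width.

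**Figure D1:**
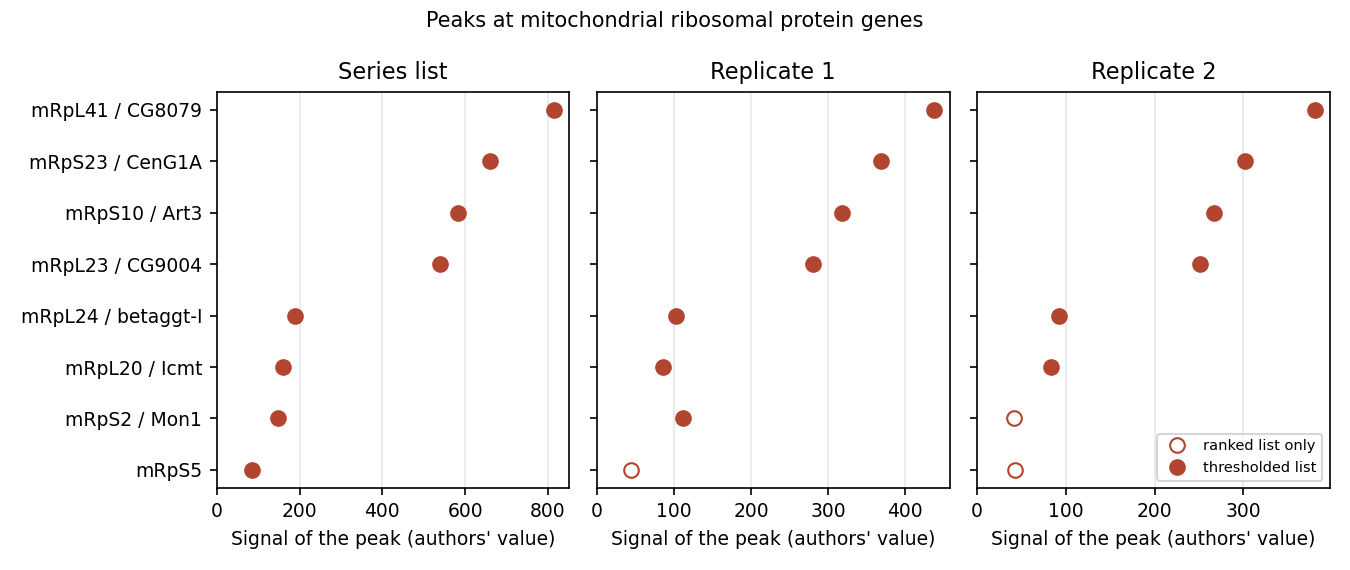
Peak signal (authors' value, linear axes that differ between panels) at each of the 8 family genes with a series peak, in the series list and in each replicate; open symbols are values from a replicate's ranked list where its thresholded list had no peak. mRpL41, mRpS23, mRpS10 and mRpL23 lie between 539 and 815 in the series list, the other 3 promoter peaks between 148 and 188, and the distant mRpS5 peak at 84.3.

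The 7 promoter peaks thus fell into a strong set of 4, all among the first 20 peaks of the series list, and a weaker set of 3. Their median signal was 539, against 127 over the 503 series peaks within 500 bp of any protein-coding TSS. Among the 285 series peaks of highest signal, 6 members had a promoter peak (8.22%), against 272 of all protein-coding genes (1.95%). The missing gene was mRpS2. Of the 6, 4 encode large-subunit and 2 small-subunit proteins. This count gives a shared promoter to both genes. By the nearest-TSS rule, only mRpL41 and mRpL23 of the 6 kept their peak.

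The replicates held most of these peaks. In the own list of replicate 1, 7 members had a peak within 500 bp of a TSS (9.59%; all protein-coding genes 592, 4.25%). In the shorter list of replicate 2, 6 members had one (8.22%; all protein-coding genes 367, 2.63%). Of the 7 family promoter peaks, 6 (85.7%) overlapped a peak in both replicates' lists, against 233 of 503 series promoter peaks (46.3%), and 7 of 7 overlapped a peak of the conservative list, as did 447 of the 503 (88.9%). Strength goes with this share, since 176 of the 185 promoter peaks among those 285 (95.1%) were in both lists. Replicate 1 held 777 peaks on these chromosomes and replicate 2 held 468, and read depth is unknown from these files.

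A head-to-head neighbour was common in the family. A facing gene started within 1000 bp of 56 of the 73 members (76.7%), against 4648 of 13945 protein-coding genes (33.3%). The distance between the facing starts had a median of 288 bp in the family (20 to 793 bp) and of 302 bp over all such genes. Among genes with a facing neighbour, 7 of 56 members (12.5%) had a series promoter peak, against 409 of 4648 genes (8.80%). Of the 17 members without a close facing neighbour 0 had one, against 291 of 9297 genes (3.13%). Over all genes the share was thus higher with a facing neighbour. Within the family the 17 are too few to compare, and what the arrangement adds to the family count was not tested.

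At 6 of the 7 promoters the summit lay between the facing starts, mRpL23 being the exception. In 5 of the 7 the TSS nearest to the summit was that of the neighbour. These were CenG1A, Art3, betaggt-I, Icmt and Mon1. Like counts over all series promoter peaks are not given here, so these placements describe the 7 only. None of the 7 peaks can be assigned by function to 1 gene of its pair, because no expression was measured. By position the mRpL41 summit lay nearer to its member, 119 bp from that TSS and 643 bp from the TSS of CG8079.

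**Figure D2:**
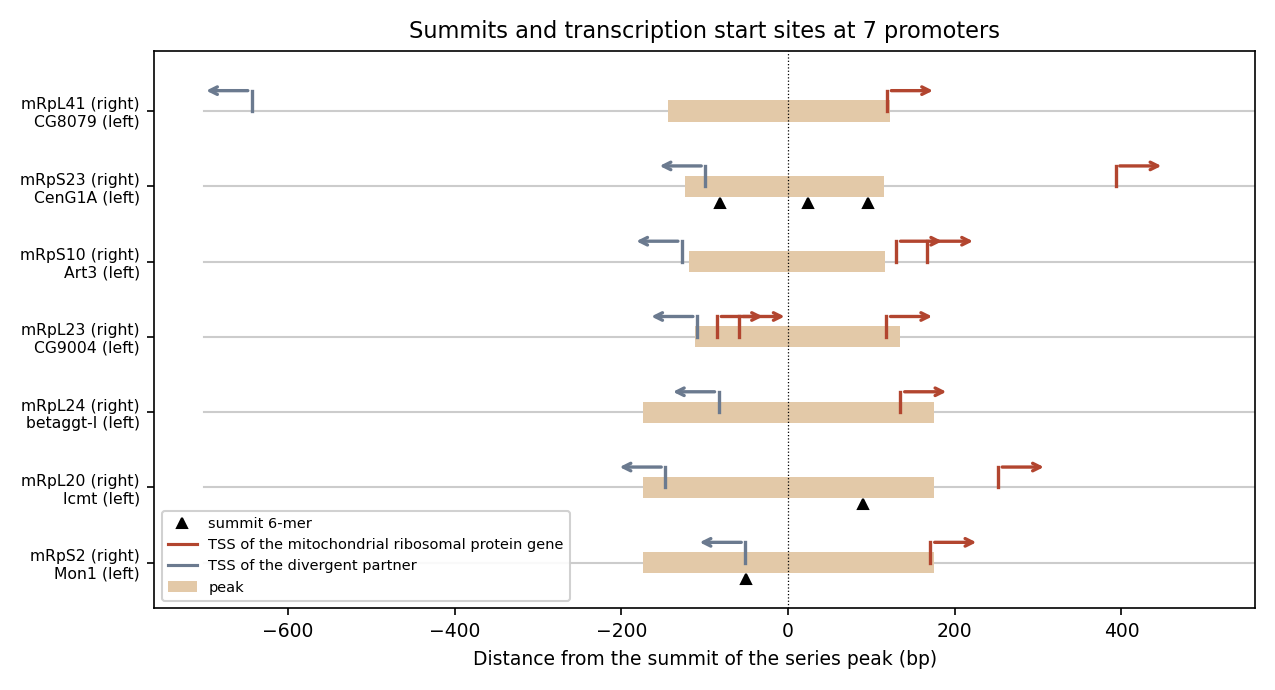
Promoters of the 7 members drawn to scale around each peak summit (distance in bp, the member reading to the right), with the member's and the neighbour's TSSs, the peak interval and triangles at ACAGTG within 100 bp (labelled as the summit 6-mer). The closest member TSS lies 59 to 393 bp from the summit, and the facing starts lie 24 to 762 bp apart.

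Most of the family had no peak of this strength. Of the 73 members, 66 had no series peak within 500 bp of a TSS and 7 (9.59%) had one. Most protein-coding genes had none either, as 5.02% of them had one. A look below the threshold used the ranked list that contains the series list, which holds 140206 peaks on these chromosomes and includes many that did not repeat. In that list 36 members had a peak within 500 bp (49.3%), against 8926 of all protein-coding genes (64.0%). A ranked peak had 46 members as its nearest gene (63.0%), against 11245 of all genes (80.6%). The strongest ranked peak within 500 bp had a median signal of 27.2 over those 36 members (5.07 to 815) and of 32.0 over the 8926 genes (2.01 to 1038). The 29 members with a ranked peak and no series peak there had signals of 5.07 to 63.6 with a median of 23.0.

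Among peaks within 500 bp of a member's TSS there was a gap between those just inside and just outside the threshold. The threshold is an IDR of 0.01. The weakest promoter peak inside it was that of mRpS2, with a signal of 148 and an IDR of 0.000956. The strongest outside it within 500 bp was at mRpL37 (FBgn0261380; 3R, 10782563 to 10784092, minus strand), with a signal of 63.6, an IDR of 0.0909 and a summit 91 bp upstream of its TSS. Its ranked signal was 26.8 in replicate 1 and 25.8 in replicate 2. Among peaks with the member as nearest gene, the next within 500 bp were mRpL51 (46.3, IDR 0.210) and mRpL34 (46.2, IDR 0.254). They were followed by mRpS34 (42.5, IDR 0.560) and mRpL16 (40.6, IDR 0.385). Peaks nearer to another gene also exceeded mRpL16, at mRpL46 (42.5, IDR 0.540), mRpS24 (41.4, IDR 0.174) and mRpL33 (41.0, IDR 0.299). The summits at mRpL51 and mRpS34 lay 329 and 344 bp downstream of the TSS in coding exons, those at mRpL34 and mRpL16 lay 158 and 128 bp upstream. Farther out, the distant series peak of mRpS5 had a signal of 84.3 and an IDR of 0.00303. The strongest peaks outside the threshold with mRpS5, mRpL40, mRpL10 and mRpL12 as nearest gene, 862 to 62946 bp from a TSS, had 72.1 (IDR 0.0119), 62.3 (IDR 0.0239), 61.3 (IDR 0.0428) and 58.8 (IDR 0.0407). None of the peaks at mRpL37, mRpL51, mRpL34, mRpS34 and mRpL16 overlapped a peak in either replicate's thresholded list. Of the 29 members with a ranked and no series peak there, 0 had a peak within 500 bp at an IDR of 0.05, a share near that of 289 of the 8226 such protein-coding genes (3.51%).

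**Figure D3:**
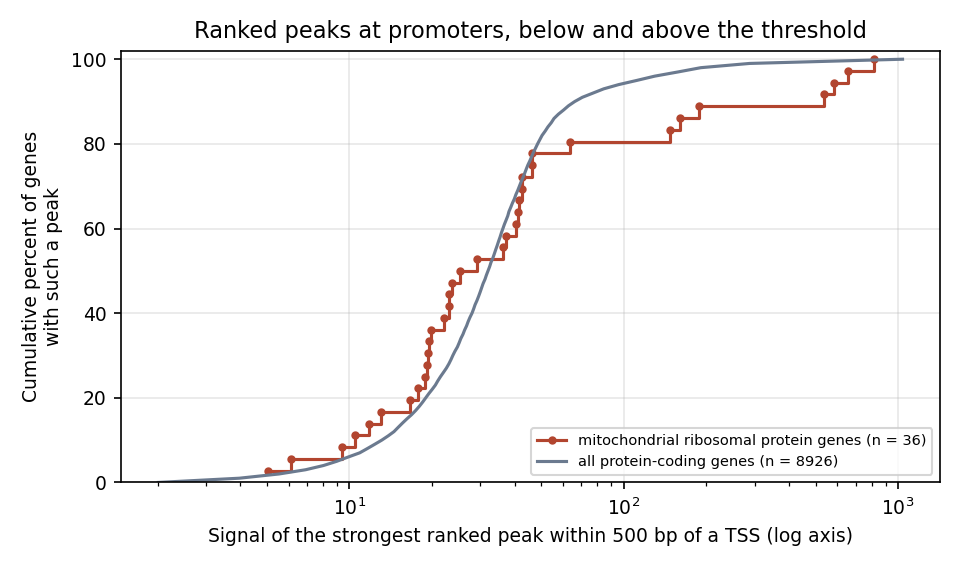
Cumulative percent of genes against the signal of the strongest ranked peak within 500 bp of a TSS (authors' value, log axis), for the 36 members with one (each point a member) and for 8926 protein-coding genes. The 7 members with a series peak stand at 148 or above, and the other 29 at 63.6 or below.

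Counting every gene with a TSS within reach, nearest or not, the family's share lay above that of all genes at each of the 7 distances tried. The gap was least at 100 bp. The distances are nested, so these shares are not separate results. By the nearest-TSS rule the family's share at 500 bp was the lower (2.74%; all genes 3.50%). A series summit lay within 100 bp of a TSS at 1 member (1.37%; all genes 1.23%) and within 250 bp at 5 (6.85%; all genes 3.92%). Within 1000 bp the count was still 7 (9.59%; all genes 6.01%). Within 2000 bp it was 10 (13.7%; all genes 7.89%), within 5000 bp 17 (23.3%; all genes 13.7%) and within 10000 bp 24 (32.9%; all genes 22.4%). The median distance from a gene's TSS to the nearest series summit was 19773 bp in the family and 34179 bp over 13865 genes on chromosomes that hold a series peak.

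The 3 members added between 1000 and 2000 bp had peaks that lay at the start of another gene. The peak near mRpS24, 1916 bp downstream of its TSS, had a signal of 153 and stood 98 bp from TBC1d7. The peak near mRpL13, 1460 bp downstream, had a signal of 140.4 and stood 109 bp from CG10602. The peak near mRpL46, 1878 bp upstream, had a signal of 80.4 and stood 72 bp from PolD2, a DNA polymerase subunit gene. At mRpS24 and mRpL13 the own list of replicate 1 held the peak (97.0 and 104), the own list of replicate 2 did not, and at mRpL46 neither did. The distant peak of mRpS5 (3L, 24508288 to 24508637; rank 813) was also in neither own list, with ranked signals of 44.6 in replicate 1 and 42.2 in replicate 2. It lay in intergenic DNA with 58.2% G or C within 100 bp of its summit, against 26.4% to 36.3% at the 7 promoter peaks.

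**Figure D4:**
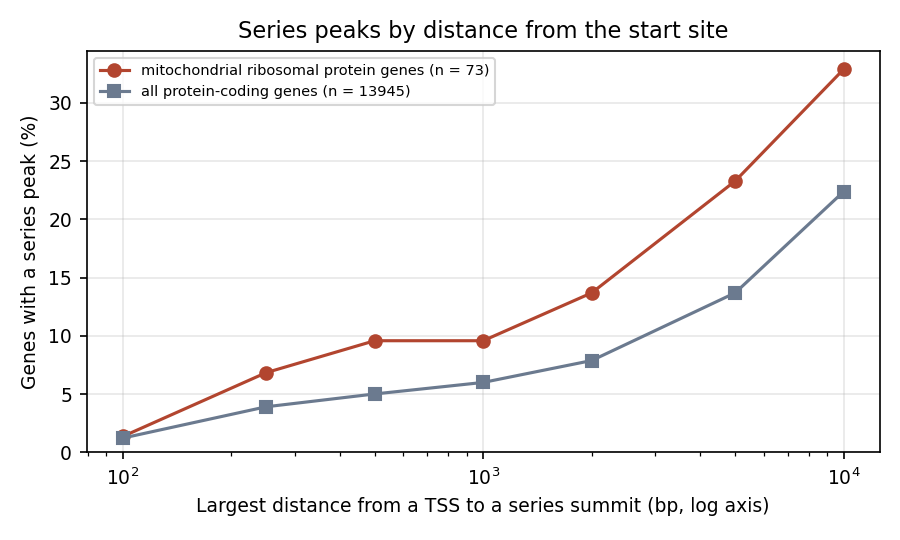
Share of genes (percent) with a series peak summit within a given distance of a TSS, nearest or not. It is shown at 7 distances from 100 to 10000 bp, for the 73 members and for all protein-coding genes. The family lies at 9.59% at both 500 and 1000 bp, against 5.02% and 6.01% of all genes.

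The promoter peaks of the family stood in AT-rich DNA. The 201 bases around each of the 7 summits had a median of 29.9% G or C, against 34.8% around the 503 series promoter summits. The fixed promoter windows, from 250 bases before to 50 bases after a TSS, had a median of 34.7% in the family and 38.0% over all protein-coding genes. Short AT-rich words occur more often in such DNA. In the fixed promoter windows TTAAAA and TATCGATA, which are AT-rich, were more frequent in the family than over all genes (values below). So were ACAGTG, GGTCACAC and GCGCATGC, which are not AT-rich, while GGTGTGA was less frequent. At the 7 summits TATCGATA was absent. The part of base composition in these counts was not tested.

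The searched words, on both strands, were ACAGTG and TTAAAA, TATCGATA (the DRE, bound by DREF, and its own reverse complement), GGTCACAC (the core of Motif 1, a frequent core promoter element), GGTGTGA (a T-box core site) and GCGCATGC (a site of the type bound by NRF-1, a regulator of mitochondrial genes in mammals). ACAGTG was within 100 bp of the summit at 3 of the 7 promoter peaks (42.9%), against 106 of 503 series promoter peaks (21.1%). These were mRpS23, which had the word in 3 places, mRpS2 and mRpL20. Within 50 bp it was at 1 of the 7 (14.3%), that of mRpS23, against 34 of 503 (6.76%). The T-box word GGTGTGA was at 0 of the 7, against 7 of 503 (1.39%), which says only that these letters are not in those windows. TTAAAA was at 5 of the 7 (71.4%), against 266 of 503 (52.9%), and overlapping copies such as TTTTAAAA were counted once per window. TATCGATA, GGTCACAC and GCGCATGC were at 0 of the 7, against 22 (4.37%), 7 (1.39%) and 3 (0.596%) of the 503. The source of ACAGTG and TTAAAA is not stated, and they may come from summits of these same data. Their shares at summits are thus a description only.

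In the fixed promoter windows of all 73 members the words fell differently. TATCGATA was in 15 family promoters (20.5%), against 1305 of all promoters (9.36%), and GGTCACAC was in 8 (11.0%), against 1074 (7.70%). ACAGTG was in 13 (17.8%), against 1945 (13.9%), and TTAAAA in 52 (71.2%), against 7444 (53.4%). GGTGTGA was in 1 family promoter, that of mRpS14 (1.37%), against 400 (2.87%), and GCGCATGC in 1, that of mRpL21 (1.37%), against 146 (1.05%). Most members with a given word had no series peak: of the 13 with ACAGTG 2 had one (mRpL20 and mRpS2; 15.4%), against 172 of the 1945 promoters with the word (8.84%). Of the 15 with TATCGATA 2 had one (mRpL20 and mRpS23; 13.3%), against 83 of 1305 (6.36%). Of the 52 with TTAAAA 6 had one (11.5%), against 441 of 7444 (5.92%). Of the 8 with GGTCACAC 0 had one, against 52 of 1074 (4.84%). The single members with GGTGTGA and with GCGCATGC had none, against 4.75% and 4.11% of all promoters with the word. Whatever the word, 7 of the 73 members (9.59%) had a series peak, against 5.02% of all genes.

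**Figure D5:**
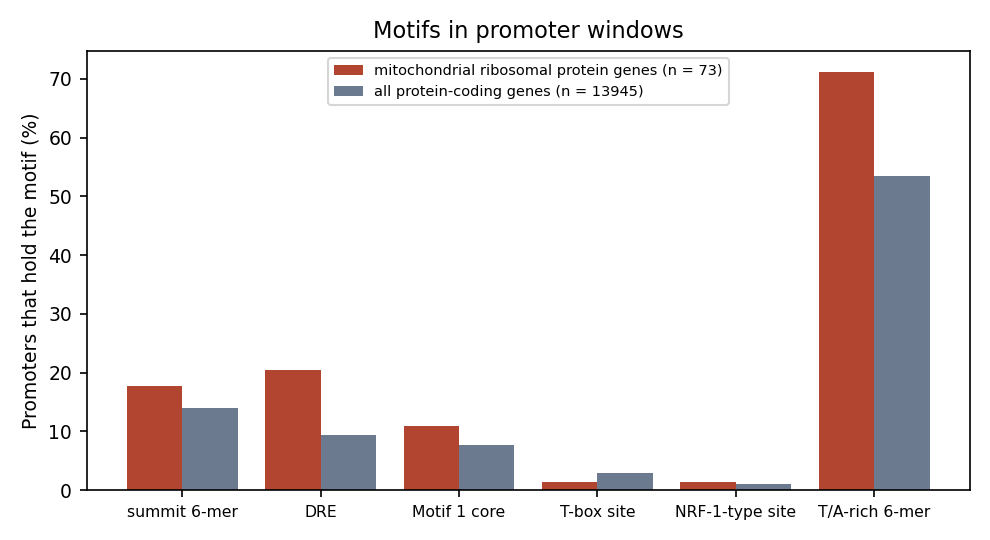
Share of promoter windows (percent; 250 bases before to 50 after a TSS) that hold each of the 6 words on either strand (the summit 6-mer is ACAGTG and the T/A-rich 6-mer TTAAAA), for the 73 members and for all protein-coding genes. The DRE is in 20.5% of family promoters and 9.36% of all promoters.

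Other genes of mitochondrial gene expression and the ribosomal protein genes of the cytosol were set beside the family to see where it differs. Counting every TSS within 500 bp, 700 of 13945 protein-coding genes (5.02%) had a series promoter peak. Of 45 other genes of mitochondrial translation, transcription, RNA handling and DNA replication that matched a gene outside the family, 2 (4.44%) had one. They were PNPase, which encodes a mitochondrial polynucleotide phosphorylase, and mtSSB, the single-stranded DNA-binding protein of mitochondria. PNPase (3R, 31401560 to 31405452) had a signal of 611 (rank 14), 355 in replicate 1 and 256 in replicate 2, with a summit 82 bp downstream of a TSS. mtSSB (3R, 16204194 to 16205250) had 124 (rank 433), 80.1 in replicate 1 and 51.8 in replicate 2, with a summit 358 bp upstream. The 19 matched genes of aminoacyl-tRNA synthetases and the GatCAB enzyme, the 9 translation factors and the mitoribosomal genes with other symbols, tko and bonsai, had 0. The share of the 45 was near that over all genes, and these smaller groups are too few to compare. A series promoter peak stood at 7 of the 73 members (9.59%) and at 15 of the 88 cytosolic ribosomal protein genes (RpL and RpS; 17.0%). One among the 285 series peaks of highest signal stood at 6 members (8.22%) and at 4 cytosolic genes (4.55%), against 272 of all genes (1.95%). By this count the family's share was the lower for all series peaks and the higher for the strongest, with no test of the difference. These counts include peaks nearer to a neighbour. Of the 6 members with a strong peak, only mRpL41 and mRpL23 had the TSS nearest to the summit. The nearest-TSS count of strong peaks at cytosolic genes is not given here. By the nearest-TSS rule a series promoter peak stood at 2 members (2.74%) and at 12 cytosolic genes (13.6%), against 3.50% of all genes.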

How the data were processed

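Chromatin immunoprecipitation was measured in whole embryos with 2 biological replicates. Per the labels' descriptions and the deposited notes, the authors made peak lists on dm6 from the alignments of the replicates and a control, filtered by irreproducible discovery rate (IDR). No aligner or caller is named (not given in the sources used here). Signal, as deposited, is the value per peak from the caller. The deposited score is the scaled IDR, with a lowest value of 830 in the thresholded lists (IDR 0.01), and the ranked lists also give the authors' −log10 of the IDR. The files give no read counts, so depth is unknown and signals carry no interval.

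On the main chromosomes (X, both arms of 2 and 3, and 4) lay 1140 of 1230 series peaks, which were used. Each summit was given to the nearest TSS of 13945 protein-coding genes (Ensembl release 115, the same assembly), and also to every gene with a TSS within 500 bp, a count added after seeing the data. Facing genes had starts up to 1000 bp apart on opposite strands, reading away from each other. Peaks overlapped when they shared at least 1 bp. Words were searched within 100 bp of summits and in 300-base promoter windows. Of 52 listed other mitochondrial genes, 45 matched a non-member, and those without a match were left out.

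The members and lists were chosen with earlier results of these data known, so no test was run and counts stand beside the same counts over all genes. The rule for named genes took members with a nearest series peak, the 5 members without one whose ranked peak within 500 bp was strongest (the 5 whose shared peak went to the neighbour), facing neighbours, and listed other genes with a series peak. The next 5 members by signal, taken from ranked peaks with the member as nearest gene, were named after their values were seen. So were members with a ranked peak of like signal nearer to another gene, members within 2000 bp and members holding a word. Alternatives were other lists, each replicate alone, distances, TSS sets and windows. Assignment was tested on simulated data. Python 3.11.15, numpy 2.4.6, pandas 2.3.3 and matplotlib 3.10.9 were used.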

Additional observations from a re-analysis of the deposited data

How the results depend on the processing

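The count of members with a nearest series peak was 3 and became 6 at an IDR of 0.05 (8.22%, against 15.4% of all genes), where mRpL40, mRpL10 and mRpL12 were added at 862 to 14916 bp from a TSS; the lists of single replicates gave 2 to 3. The count within 500 bp was 2 by the nearest-TSS rule and 7 when every gene with a TSS within 500 bp was counted, because a shared peak then counts for both genes. Of the 2, both faced a neighbour within 1000 bp and 1, mRpL23, within 500 bp. The median signal of those 2 nearest promoter peaks was 677. In replicate 1 alone it was 318 over 3 peaks, with mRpS10 added, and in replicate 2 alone 315 over 2 peaks. Each replicate's list has its own signal scale. With 50 bp to each side of the summit, ACAGTG was at 1 of the 7 peaks in place of 3 (14.3%, against 6.76% of all promoter peaks). The count of 7, chosen after seeing the data, was 6 to 7 in single replicates, 5 within 250 bp and 7 in the conservative list. At an IDR of 0.05 it was also 7 (9.59%), against 7.09% of all genes, and in the upper 50% of the list 7, against 3.43%. No paired analysis was possible because there was 1 group and no test. With 7 promoter peaks each share rests on few genes.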
